A study of Mus musculus with 20 samples.

Results

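The translation initiation factors are the proteins that bring the initiator tRNA, the small ribosomal subunit and an mRNA together and place the ribosome on a start codon. They were taken here as every row of the count table whose Ensembl identifier belongs to a protein-coding mouse gene with a symbol that begins with Eif. The Eif2ak kinases, which phosphorylate eIF2 and take no part in the assembly itself, were left out. This gave 51 genes of 49315 in the table, after 4 kinase genes had been set aside from 55. The name, not any measured value, chose them, and the symbol prefix also brings in a few proteins with other main tasks, such as Eif4enif1, Eif6 and Eif5a.

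RNA was sequenced from 20 libraries of splenic T effector cells, sorted as CD4+ and CD25- cells. CKO cells came from mice labelled Fl-Pcbp2/CD4cre, in which a floxed Pcbp2 gene meets a Cre recombinase driven by the Cd4 promoter, so that the gene is lost in developing T cells. CTL cells came from control littermates, whose alleles the labels do not spell out. There were 3 CKO and 5 CTL libraries of cells cultured for 6 h with CD3/CD28 activator beads, and 6 CKO and 6 CTL libraries of unstimulated cells, called 0 h. A 6 h culture without beads was not analysed here, so time in culture and the stimulus cannot be told apart. The labels used here give no ages and tie no library to an animal, so p-values measure the spread between these libraries, which may in part be technical. Each title carries a number, such as 5.13, which is used here to name a library within its group.

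Initiation in mammalian cells begins when eIF2 carries the initiator tRNA, with GTP, to the small subunit together with eIF1, eIF1A, eIF3 and eIF5. The mRNA is brought in by eIF4F, in which eIF4E binds the cap, eIF4G is the scaffold and eIF4A unwinds structure near the start of the message. The 4E-binding proteins hold eIF4E back until mTOR kinase phosphorylates them, and eIF2B recharges eIF2 with GTP for the next round. Resting T cells make little protein, and activation through the antigen receptor and CD28 is known to raise protein synthesis sharply before the first division. Pcbp2 is an RNA-binding protein that prefers runs of C, and it is known both for acting on the stability and translation of mRNAs and as a helper of initiation at the internal ribosome entry sites of some viruses.

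Several facts of the series bear on the values below. Pcbp2 stood at 7.27 to 11.3 CPM (a gene's counts scaled to a common library size, with TMM factors) in CKO cells and 262 to 348 CPM in CTL cells at 6 h, and at 13.1 to 22.1 CPM in CKO cells and 261 to 396 CPM in CTL cells at 0 h. Total counts lay between 62.4 M and 85.6 M in 19 libraries, and the CTL library 4.24 at 6 h held 26.4 M with a TMM factor of 1.37. The CKO libraries 4.24 and 5.6 at 0 h were labelled male but had Xist at 1160 and 1350 CPM and almost no Eif2s3y, and all 6 CKO libraries at 0 h carried the male label. The summed level of 8 T cell genes was 2390 to 2720 CPM in CKO cells and 2010 to 2630 CPM in CTL cells at 6 h, and 4320 to 5210 CPM in CKO cells and 3750 to 4960 CPM in CTL cells at 0 h. The sum of 7 B cell genes was 17.3 to 86.2 CPM at 6 h and 45.7 to 338 CPM at 0 h, that of 7 myeloid genes 30 to 53 CPM and 62.4 to 143 CPM, and those of CD8, NK and red cell or platelet genes did not pass 114, 26.8 and 1.86 CPM in any library. Their part in the results was not tested. In such bulk samples fewer cells of a type and less RNA per cell cannot be told apart, and a CPM says nothing of the total RNA in a cell.

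In unstimulated CTL cells the mRNAs of the initiation factors differed widely in level. Per kilobase of merged exon length, the mean over the 6 CTL libraries at 0 h was 192 ± 33.2 CPM per kb (SD, as after every ± on a level) for Eif3h, 155 ± 33.1 for Eif1 and 140 ± 13.8 for Eif4a2. Eif5a followed at 131 ± 16.6, Eif3f at 130 ± 23.4, Eif4b at 115 ± 14.9, Eif4a1 at 103 ± 7.57 and Eif4g2 at 90.6 ± 9.74 CPM per kb. Of the neighbours in this order, only Eif3h and Eif1, and Eif4a1 and Eif4g2, differed by more than the larger of their SDs. All the others differed by less. The cap-binding protein Eif4e stood far lower, at 9.63 ± 0.622 CPM per kb, below its relative Eif4e2 at 13.9 and below the scaffold Eif4g1 at 72.0 ± 6.44. Its inhibitor Eif4ebp2, at 31.5 ± 5.52 CPM per kb, was the most abundant of the 4E-binding proteins, against 2.11 ± 0.226 for Eif4ebp1 and 2.2 for Eif4ebp3. The values of Eif4ebp3 are uncertain, since 67.3% of its exon length is shared with another annotated gene on the same strand. At the low end were Eif5a2 at 2.65 ± 0.443, Eif2b3 at 2.21 and Eif3j2 at 0.136 CPM per kb. Eif4e1b, an eIF4E relative known from oocytes, did not pass the filter on low counts, with 0 to 1.0 CPM in any library, and the other 50 genes were tested.

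After 6 h with beads, 17 of the 50 tested initiation factor mRNAs rose and 5 fell in CTL cells, and 7 rose and 3 fell in CKO cells, by edgeR's quasi-likelihood test with adjusted p under 0.05 over 28082 genes. The rises took in Eif5a, Eif1a, eIF2 subunits, Eif6 and several eIF3 subunits, and the clearest fall in both genotypes was that of Eif2d. In CTL cells 44% of the members were called, 34% upward and 10% downward, against 63.4% of all genes tested, of which 41.6% rose and 21.7% fell. In CKO cells 20% of the members were called, 14% upward and 6% downward, against 32.8% of all genes, with 19.6% upward and 13.1% downward. The share of members called was thus below that of all genes in both genotypes in this fit. The background differed with level. Among the 9015 genes with a mean of at least 10 CPM, 11.9% rose and 46.0% fell in CTL cells, and 9.18% rose and 23.1% fell in CKO cells. The median log2 change of the members was 0.11 in CTL and 0.19 in CKO cells, against 0.31 and 0.12 over all genes and −0.25 and −0.09 over those with at least 10 CPM. These values move with the scaling: the median CTL change of genes at 1 CPM or more was 0.01 with genes under 1 CPM left out of the fit and −0.20 with them in it.

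**Figure D1:**
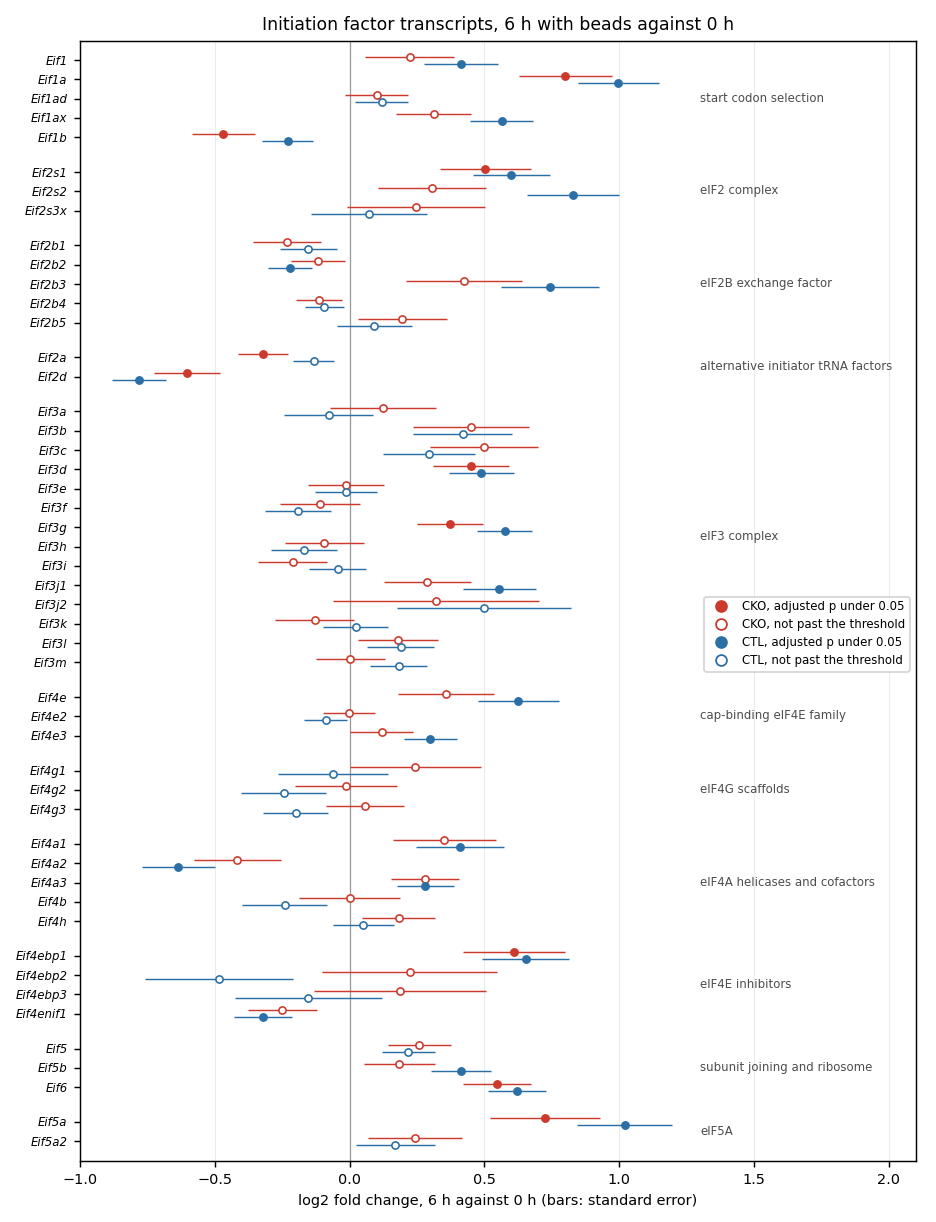
Log2 change at 6 h against 0 h (horizontal axis) of 49 initiation factor mRNAs in CKO and CTL cells, grouped by role, with standard errors as bars and filled points where the adjusted p is under 0.05; Eif2s3y is not drawn. Eif5a and Eif1a reach about 1 in CTL cells, Eif2d lies at −0.78, and most points of both genotypes fall on the same side of 0.

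Library 4.24 of CTL at 6 h bears on these counts, so they were repeated without it and with genes under a mean of 1 CPM left out, a setting chosen after the data had been seen. Of 49 members then tested, 30 rose and 2 fell in CTL cells and 22 rose and 3 fell in CKO cells. The background there, over 13682 genes, was 27.1% higher and 26.4% lower in CTL cells and 21.7% higher and 22.7% lower in CKO cells. With 32 of 49 members called in CTL and 25 of 49 in CKO cells, the share of members called was there above that of all genes. In that setting Eif2d and Eif4a2 still fell in CTL cells, and the calls on Eif1b, Eif2b2 and Eif4enif1 ended. The 13 added rises in CTL cells were Eif1ad, Eif2b5, Eif2s3x, Eif3a, Eif3b, Eif3c, Eif3l, Eif3m, Eif4e2, Eif4g1, Eif4h, Eif5 and Eif5a2. In CKO cells the call on Eif2a ended and a fall of Eif4a2 was added. The added rises in CKO cells were Eif1, Eif1ax, Eif2b5, Eif2s2, Eif3b, Eif3c, Eif4a1, Eif4a3, Eif4e, Eif4e3, Eif4g1, Eif4h, Eif5, Eif5a2 and Eif5b. Of these added CKO calls, those on Eif1, Eif3b, Eif3c, Eif4a3, Eif4e3, Eif4h and Eif5 held with the library number as a block too.

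Promoter sequence could be looked up for 39 of the 51 genes in RefSeq (GRCm38.p6, 250 bases before to 50 bases after each annotated start). The E-box CACGTG, which reads the same on both strands and is bound by Myc with Max and by other factors of that class, was present in a promoter of 10 of the 39 genes (25.6%), against 2187 of the 27025 genes in the table (8.09%). Counted by promoter, all of the same length, it was in 12 of 51 promoters of initiation factors (23.5%) and 2349 of 32851 in all (7.15%). The share was 3 of 12 (25.0%) among members that rose in CTL cells, 1 of 5 (20%) among those that fell and 6 of 22 (27.3%) among those not called, so it did not set the risers apart. A match is a description of the letters only. The sequences below hold the E-box in capitals, read 5′ to 3′ on the gene's strand, and are shown because they come from the cap-binding protein, the helicase and Eif5a, which rose, from Eif1b, which fell, and from the scaffold Eif4g1.

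Eif4e, plus strand, chr3:138527025-138527060: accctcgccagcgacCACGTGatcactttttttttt

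Eif4e, plus strand, chr3:138527189-138527224: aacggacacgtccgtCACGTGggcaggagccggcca

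Eif4a1, minus strand, chr11:69672592-69672627: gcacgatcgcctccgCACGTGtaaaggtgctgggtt

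Eif5a, minus strand, chr11:69920788-69920823: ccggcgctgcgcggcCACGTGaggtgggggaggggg

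Eif5a, minus strand, chr11:69921440-69921475: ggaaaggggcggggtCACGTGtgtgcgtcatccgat

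Eif1b, plus strand, chr9:120492567-120492602: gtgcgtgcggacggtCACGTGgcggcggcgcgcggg

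Eif4g1, plus strand, chr16:20672658-20672693: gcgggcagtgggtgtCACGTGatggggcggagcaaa

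The Eif4e promoter holds the element at 2 places, at positions −228 and −64 from the start, and Eif5a holds it before separate annotated starts. Myc, the factor best known to bind it, averaged 270 CPM in CKO and 328 CPM in CTL cells at 6 h, and 51.1 CPM in CKO and 70.0 CPM in CTL cells at 0 h. Myc rose by 2.41 ± 0.29 in CKO (adjusted p = 5.38e-06) and by 2.22 ± 0.26 in CTL cells (adjusted p = 1.49e-06). Many mRNAs of the translation machinery begin with a C followed by a run of pyrimidines, the feature through which mTOR controls their translation. A start of that kind, a C and at least 4 more C or T on the gene's strand, was annotated for 2 of the 39 genes (5.13%), against 813 of the 27025 genes in the table (3.01%). The run had to begin at the annotated start itself, so a start annotated some bases away was not counted. No promoter could be looked up for 12 members. The 2 genes found are Eif3f and Eif2s3x, shown with the pyrimidine run from the start in capitals.

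Eif3f, plus strand, chr7:108934400-108934429: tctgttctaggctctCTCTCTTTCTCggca

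Eif2s3x, minus strand, chrX:94212637-94212666: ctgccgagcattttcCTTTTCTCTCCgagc

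Of the factors that act in start codon selection, Eif1a carried the clearest change. Eif1a encodes a copy of eIF1A, which sits in the decoding site of the small subunit. It had 78.8, 52.9, 61.7, 98.3 and 90.2 CPM in the CTL libraries 4.29, 4.24, 5.13, 9.20 and 10.28 at 6 h, against a lowest, median and highest value of 34.7, 36.1 and 43.5 CPM in CTL cells at 0 h. In CKO cells it had 55.4, 54.5 and 92.7 CPM in libraries 5.13, 5.6 and 11.18 at 6 h, against 36.7, 38.8 and 45.8 CPM at 0 h. Every 6 h library lay above every 0 h library of its genotype. The log2 change was 1.00 ± 0.15 (SE, as after every ± on a log2 change) in CTL cells (adjusted p = 2.34e-05) and 0.80 ± 0.17 in CKO cells (adjusted p = 0.00212). Its X-linked copy Eif1ax had 75.4, 82.3, 62.4, 91.3 and 83.3 CPM in CTL cells at 6 h, against 46.7, 53.3 and 62.6 CPM at 0 h, a change of 0.57 ± 0.12 (adjusted p = 0.000401). In CKO cells the log2 change of Eif1ax was 0.31 ± 0.14, which did not pass (adjusted p = 0.0908), and 6 h and 0 h libraries overlapped there. Without CTL 6 h library 4.24 and genes under 1 CPM, Eif1ax passed in CKO cells (0.46, adjusted p = 0.0112).

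Of the pair of eIF1 genes, Eif1 rose in CTL cells and Eif1b fell most clearly in CKO cells. Eif1, which guards against initiation at wrong codons, had 438, 577, 335, 402 and 392 CPM in CTL cells at 6 h, against 278, 299 and 462 CPM at 0 h, and rose by 0.41 ± 0.14 with overlap of the groups (adjusted p = 0.0138). Eif1b, its close relative, had 39.0, 49.2, 35.4, 37.7 and 37.0 CPM in CTL cells at 6 h, against 41.0, 46.5 and 52.6 CPM at 0 h. In CKO cells Eif1b had 31.6, 33.9 and 37.4 CPM at 6 h, against 42.5, 48.2 and 52.0 CPM at 0 h, with no overlap. Eif1b fell by 0.47 ± 0.12 in CKO cells (adjusted p = 0.00518) and by 0.23 ± 0.09 in CTL cells (adjusted p = 0.0411), where it stood at 0.01 with genes under 1 CPM left out. With the library number as a block, the adjusted p of Eif1b in CTL cells was 0.0777. Up to 12.7% of the exon length of Eif1b lies opposite another gene. The ratio of Eif1 to Eif1b was 8.99 to 9.99 in CKO cells and 9.47 to 11.7 in CTL cells at 6 h, and 5.35 to 6.4 in CKO cells and 6.24 to 9.61 in CTL cells at 0 h. Eif1ad, a nuclear protein with an eIF1A-like domain, was not called with all libraries. Eif1ad rose by 0.38 in CTL cells in the setting without CTL 6 h library 4.24 and genes under 1 CPM (adjusted p = 0.00134).

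The subunits of eIF2, the carrier of the initiator tRNA, moved upward where they were called. Eif2s1, the alpha subunit that stress kinases phosphorylate, had 98.7, 84.9, 77.6, 138 and 120 CPM in CTL cells at 6 h, against 60.9, 68.5 and 76.5 CPM at 0 h, and rose by 0.60 ± 0.14 (adjusted p = 0.0013). In CKO cells Eif2s1 had 71.6, 78.5 and 115 CPM at 6 h, against 55.8, 62.6 and 75.1 CPM at 0 h, and rose by 0.50 ± 0.17 (adjusted p = 0.0281, and 0.0749 with the number as a block). The groups did not overlap in CTL cells and did in CKO cells. Eif2s2, the beta subunit, had 122, 222, 86.3, 142 and 135 CPM in CTL cells at 6 h, against 69.5, 83.0 and 87.2 CPM at 0 h. Library 4.24 gave the highest of these and 5.13 the lowest, which lay within the 0 h range. Eif2s2 rose by 0.83 ± 0.17 in CTL cells (adjusted p = 0.00036), and its change of 0.31 ± 0.20 in CKO cells did not pass (adjusted p = 0.252), with 80.5, 88.6 and 132 CPM at 6 h and 59.6, 79.6 and 90.5 CPM at 0 h. Without CTL 6 h library 4.24 and genes under 1 CPM, Eif2s2 passed in CKO cells (0.50, adjusted p = 0.0281).

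Among the 5 subunits of eIF2B, the exchange factor that recharges eIF2, 1 rose and 1 fell in CTL cells and none was called in CKO cells with all libraries. Eif2b3, of the catalytic part, had 19.4, 23.7, 15.5, 32.9 and 29.2 CPM in CTL cells at 6 h, against 12.8, 14.2 and 16.0 CPM at 0 h. In CKO cells it had 13.8, 13.8 and 28.2 CPM at 6 h, against 13.4, 13.7 and 15.1 CPM at 0 h. The CTL libraries at 6 h lay above those at 0 h except for 5.13, and in CKO cells library 11.18 alone stood apart. Eif2b3 rose by 0.74 ± 0.18 in CTL cells (adjusted p = 0.00156), and its change in CKO cells was 0.42 ± 0.21 (adjusted p = 0.135), or −0.05 without CKO library 11.18. Eif2b2, of the regulatory part, fell by 0.22 ± 0.08 in CTL cells (adjusted p = 0.0262), with 40.8 to 48.2 CPM at 6 h and 43.5 to 56.3 CPM at 0 h, and stood at 0.00 with genes under 1 CPM left out.

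Eif2d and Eif2a can deliver the initiator tRNA without GTP and act at special or reinitiating messages. Eif2d fell in both genotypes, and Eif2a was called lower in CKO cells. Eif2d had 41.4, 28.7, 51.4, 45.5 and 45.2 CPM in CTL cells at 6 h, against 65.7, 72.1 and 77.4 CPM at 0 h. In CKO cells Eif2d had 50.1, 46.5 and 45.8 CPM at 6 h, against 69.0, 74.9 and 78.3 CPM at 0 h. No 6 h library reached the lowest 0 h library in either genotype. The fall was 0.78 ± 0.10 on the log2 scale in CTL cells (−0.78, adjusted p = 5.45e-06) and 0.60 ± 0.12 in CKO cells (−0.60, adjusted p = 0.00132). Eif2d was the one member called in both responses under every alternative that gave a value. Eif2a had 36.4, 35.8 and 39.2 CPM in CKO cells at 6 h, against 42.2, 45.6 and 49.4 CPM at 0 h, and fell by 0.32 ± 0.09 (adjusted p = 0.0125, and 0.0703 with the number as a block). In CTL cells Eif2a had 39.1 to 52.4 CPM at 6 h and 46.8 to 53.2 CPM at 0 h, and its change of −0.13 ± 0.08 was not called.

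The 14 genes of eIF3, the scaffold that holds the small subunit open for the mRNA, did not move as a block. In CTL cells 3 rose, none fell and 11 were not called, and in CKO cells 2 rose. Eif3g, an RNA-binding subunit at the mRNA entry side, had 144, 143, 123, 166 and 152 CPM in CTL cells at 6 h, against 86.1, 97.8 and 112 CPM at 0 h, with no overlap, and rose by 0.58 ± 0.10 (adjusted p = 0.000104). In CKO cells Eif3g had 124, 128 and 168 CPM at 6 h, against 99.2, 108 and 131 CPM at 0 h, and rose by 0.37 ± 0.12 (adjusted p = 0.0243, and 0.0725 with the number as a block). Eif3d, a cap-binding subunit in human cells, rose by 0.49 ± 0.12 in CTL cells (adjusted p = 0.0016) and by 0.45 ± 0.14 in CKO cells (adjusted p = 0.021, and 0.0547 with the block), with overlap of 6 h and 0 h libraries in both. Of the exon length of Eif3d, 43.3% lies opposite another annotated gene, and the strand setting of the counts is not given in the sources used here.

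Eif3j1, a loosely bound subunit, had 58.9, 63.5, 48.6, 86 and 77.5 CPM in CTL cells at 6 h, against 40.0, 46.1 and 51.5 CPM at 0 h, and rose by 0.56 ± 0.14 (adjusted p = 0.00156). Eif3j1 shares an identical stretch of 1107 bases with its copy Eif3j2, so reads of the pair may be split between them and both values are uncertain. Eif3j2 had 0.25 to 0.779 CPM at 6 h and 0.168 to 0.446 CPM at 0 h. The core subunits Eif3a, Eif3b and Eif3c were not called in CTL cells, at −0.08 ± 0.17, 0.42 ± 0.18 (adjusted p = 0.0523) and 0.29 ± 0.17 (adjusted p = 0.141). CTL library 4.24 was the lowest 6 h library for each of these, as with 141 CPM of Eif3b against 263 to 403 CPM in the other 4. Without that library and without genes under 1 CPM, Eif3b rose by 0.80 (adjusted p = 0.000164), Eif3c by 0.65 (adjusted p = 0.000703) and Eif3a by 0.31 (adjusted p = 0.00742), and Eif3e, Eif3f, Eif3h, Eif3i and Eif3k were still not called.

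In the eIF4F complex, the cap-binding protein and the helicases changed in level, and the scaffolds were not called with all libraries. The setting without CTL 6 h library 4.24 and without genes under 1 CPM differed. There Eif4g1 rose by 0.37 in CTL (adjusted p = 0.00887) and by 0.32 in CKO cells (adjusted p = 0.0369). Eif4g2 and Eif4g3 were not called there, nor was Eif4g1 when only that library was left out. Eif4e had 81.6, 78.0, 65.0, 121 and 104 CPM in CTL cells at 6 h, against 55.1, 56.7 and 65.1 CPM at 0 h. In CKO cells Eif4e had 60.2, 61.9 and 107 CPM at 6 h, against 55.5, 59.7 and 68.7 CPM at 0 h. Only CTL library 5.13 at 6 h reached into the 0 h range in CTL cells, while in CKO cells 11.18 alone lay above it. Eif4e rose by 0.63 ± 0.15 in CTL cells (adjusted p = 0.00133), and its change of 0.36 ± 0.18 in CKO cells did not pass (adjusted p = 0.129). Without CTL 6 h library 4.24 and genes under 1 CPM, Eif4e passed in CKO cells (0.50, adjusted p = 0.0381). Eif4e3, a relative that also binds caps, rose by 0.30 ± 0.10 in CTL cells (adjusted p = 0.012), with 14.8% of its exon length shared with another gene on the same strand. Eif4e2, a relative known for holding back translation, had −0.09 ± 0.08 in CTL cells and was not called with all libraries. Eif4e2 rose by 0.17 in CTL cells in the setting without CTL 6 h library 4.24 and genes under 1 CPM (adjusted p = 0.0109).

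The helicases Eif4a1 and Eif4a2, near-equal enzymes in the test tube, moved in opposite directions in CTL cells. Eif4a2 had 529, 321, 513, 513 and 534 CPM in CTL cells at 6 h, against 661, 735 and 870 CPM at 0 h. In CKO cells Eif4a2 had 497, 540 and 527 CPM at 6 h, against 582, 721 and 786 CPM at 0 h. No 6 h library overlapped the 0 h libraries of its genotype. Eif4a2 fell by 0.64 ± 0.13 in CTL cells (adjusted p = 0.000483), and its change in CKO cells was −0.42 ± 0.16 (adjusted p = 0.0542). Without CTL 6 h library 4.24 and genes under 1 CPM, the fall of Eif4a2 in CKO cells passed (−0.32, adjusted p = 0.0344). Eif4a1 had 610, 408, 452, 809 and 716 CPM in CTL cells at 6 h, against 406, 443 and 496 CPM at 0 h, and rose by 0.41 ± 0.16 (adjusted p = 0.0332, and 0.0559 with the number as a block). In CKO cells the change of Eif4a1 was 0.35 ± 0.19 (adjusted p = 0.166), with 757 CPM in library 11.18 and 429 and 455 CPM in the others. It passed there without CTL 6 h library 4.24 and genes under 1 CPM (0.47, adjusted p = 0.0369). The ratio of Eif4a1 to Eif4a2 was 0.843 to 1.44 in CKO cells and 0.881 to 1.58 in CTL cells at 6 h, and 0.539 to 0.838 in CKO cells and 0.466 to 0.70 in CTL cells at 0 h. Eif4a3, the helicase of the exon junction complex, rose by 0.28 ± 0.11 in CTL cells (adjusted p = 0.0267, and 0.061 with the block). The cofactors Eif4b and Eif4h were not called with all libraries, at −0.24 ± 0.16 and 0.05 ± 0.11 in CTL cells. Both were also tested without CTL 6 h library 4.24 and without genes under 1 CPM. Eif4h then rose by 0.37 in CTL (adjusted p = 0.000107) and by 0.29 in CKO cells (adjusted p = 0.00335). Eif4b was still called in neither genotype.

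Of the eIF4E inhibitors, Eif4ebp1 rose and Eif4enif1 fell in CTL cells. Eif4ebp1 had 7.51, 8.46, 5.87, 6.49 and 8.03 CPM in CTL cells at 6 h, against 4.06, 4.45 and 5.47 CPM at 0 h. In CKO cells Eif4ebp1 had 6.61, 6.74 and 11.2 CPM at 6 h, against 4.39, 5.24 and 6.48 CPM at 0 h. The groups did not overlap in either genotype, and the rise was 0.65 ± 0.16 in CTL cells (adjusted p = 0.00171) and 0.61 ± 0.19 in CKO cells (adjusted p = 0.0189, and 0.0767 with the number as a block). Eif4ebp2, the more abundant inhibitor, had 140, 31.1, 196, 163 and 155 CPM in CTL cells at 6 h, against 122, 188 and 219 CPM at 0 h, and was not called (−0.48 ± 0.27, adjusted p = 0.132). Its lowest value was that of library 4.24. Eif4enif1, which carries eIF4E into the nucleus, had 91.0, 64.4, 96.5, 97.3 and 93.5 CPM in CTL cells at 6 h, against 104, 109 and 117 CPM at 0 h, and fell by 0.32 ± 0.11 with no overlap (adjusted p = 0.0128). That call ended with RLE scaling (−0.24, adjusted p = 0.0517) and with genes under 1 CPM left out (−0.11, adjusted p = 0.268).

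Among the factors that act at subunit joining or on the free large subunit, Eif6 and Eif5b rose. Eif6, which keeps the large subunit from joining too early and serves in its making, had 124, 111, 116, 146 and 138 CPM in CTL cells at 6 h, against 69.0, 81.5 and 96.3 CPM at 0 h. In CKO cells Eif6 had 108, 107 and 144 CPM at 6 h, against 75.3, 83.3 and 100 CPM at 0 h. There was no overlap in either genotype, and Eif6 rose by 0.62 ± 0.11 in CTL cells (adjusted p = 8.15e-05) and by 0.55 ± 0.13 in CKO cells (adjusted p = 0.00339). Eif5b, the GTPase of subunit joining, rose by 0.41 ± 0.11 in CTL cells (adjusted p = 0.0033), with 16.8% of its exon length opposite another gene. Eif5, which makes eIF2 hydrolyse its GTP, was not called in CTL (0.22 ± 0.10, adjusted p = 0.0593) or CKO cells (0.26 ± 0.12, adjusted p = 0.0943). That changed without CTL 6 h library 4.24 and without genes under 1 CPM. Eif5 then rose by 0.49 in CTL (adjusted p = 9.44e-05) and by 0.38 in CKO cells (adjusted p = 0.00295).

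Eif5a, now known mainly as a factor for elongation and release that carries the modified amino acid hypusine, had the largest fitted change among the members in CTL cells. It had 591, 557, 435, 852 and 733 CPM in CTL cells at 6 h, against 266, 300 and 364 CPM at 0 h. In CKO cells Eif5a had 392, 384 and 736 CPM at 6 h, against 280, 300 and 379 CPM at 0 h. All 6 h libraries lay above all 0 h libraries of their genotype, though libraries 5.13 and 5.6 of CKO cells did so by little. Eif5a rose by 1.02 ± 0.18 in CTL cells (adjusted p = 8.25e-05) and by 0.72 ± 0.20 in CKO cells (adjusted p = 0.0116). Its relative Eif5a2 had 8.65 to 18.9 CPM in CTL cells at 6 h and 10.6 to 16.1 CPM at 0 h, and was not called (0.17 ± 0.15, adjusted p = 0.324). That changed without CTL 6 h library 4.24 and without genes under 1 CPM. Eif5a2 then rose by 0.50 in CTL (adjusted p = 0.00156) and by 0.34 in CKO cells (adjusted p = 0.043).

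The responses of CKO and CTL cells mostly had the same direction across the members. Of the 50 tested, 7 rose in both genotypes, which were Eif1a, Eif2s1, Eif3d, Eif3g, Eif4ebp1, Eif5a and Eif6. Eif1b and Eif2d fell in both. There were 10 called upward in CTL cells only, 3 called downward in CTL cells only, and 1, Eif2a, called downward in CKO cells only, while 27 were called in neither. Being called in 1 genotype and not in the other shows no difference, and the test of the difference itself called no member, against 0% of all genes higher, lower or either, with no member at an unadjusted p under 0.05 and none called by DESeq2. The members with the smallest adjusted p in that test were Eif2s2 at −0.52 ± 0.27 (adjusted p = 0.465), Eif4ebp2 at 0.71 ± 0.44 (adjusted p = 0.467) and Eif1b at −0.24 ± 0.15 (adjusted p = 0.47). Leaving out CTL library 4.24 moved Eif2s2 to −0.28 and Eif4ebp2 to 0.31. Over the 20 fits with 1 library left out, Eif2s2 ran from −0.85 to −0.28 and Eif4ebp2 from 0.31 to 1.01. Neither was called in any of them. In a description over members, 42 of 50 had the same sign in both genotypes, 28 higher and 14 lower, and Pearson's r of the log2 changes was 0.841 over the 50 members, which share libraries and scaling. The precision limits what can be said: of the 49 members other than Eif2s3y, 15 had a 95% interval of the difference within 0.5 of 0 on the log2 scale, and 45 within 1.

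A pattern across the 6 h libraries was seen in many of the 17 members that rose, and these were chosen after their values had been seen. For Eif5a, Eif1a, Eif2s1, Eif2b3, Eif4e, Eif4a1 and Eif3j1, the CTL libraries 9.20 and 10.28 and the CKO library 11.18 stood above both libraries numbered 5.13 and above CKO library 5.6. Eif6, Eif3g, Eif2s2 and Eif1ax, which also rose in CTL cells, had it too. Eif1ax had 91.3 and 83.3 CPM in CTL libraries 9.20 and 10.28 and 76.7 CPM in CKO library 11.18. It had 62.4 CPM in CTL and 60.5 CPM in CKO library 5.13, and 61.8 CPM in CKO library 5.6. Not every member that rose had the pattern. Eif4ebp1 had 6.49 CPM in CTL library 9.20 against 6.61 and 6.74 CPM in CKO libraries 5.13 and 5.6. Both genotypes of number 5.13 were close, with 392 CPM of Eif5a in CKO and 435 in CTL cells, 55.4 and 61.7 CPM of Eif1a, and 13.8 and 15.5 CPM of Eif2b3. The 3 CKO libraries at 6 h thus include 2 of the low ones, and the labels do not say what the numbers mark. Without CKO library 11.18, the CKO response held 3 called members in place of 10, which were Eif1b, Eif2a and Eif2d, and the changes of Eif5a (0.32, adjusted p = 0.31), Eif1a (0.50, adjusted p = 0.0683), Eif6 (0.40, adjusted p = 0.0667), Eif4ebp1 (0.26, adjusted p = 0.393), Eif2s1 (0.24, adjusted p = 0.401), Eif3d (0.32, adjusted p = 0.207) and Eif3g (0.21, adjusted p = 0.296) no longer passed. With the library number as a replicate block, 5 of the 10 CKO calls were kept in the CKO response, on Eif1a, Eif1b, Eif2d, Eif5a and Eif6.

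**Figure D2:**
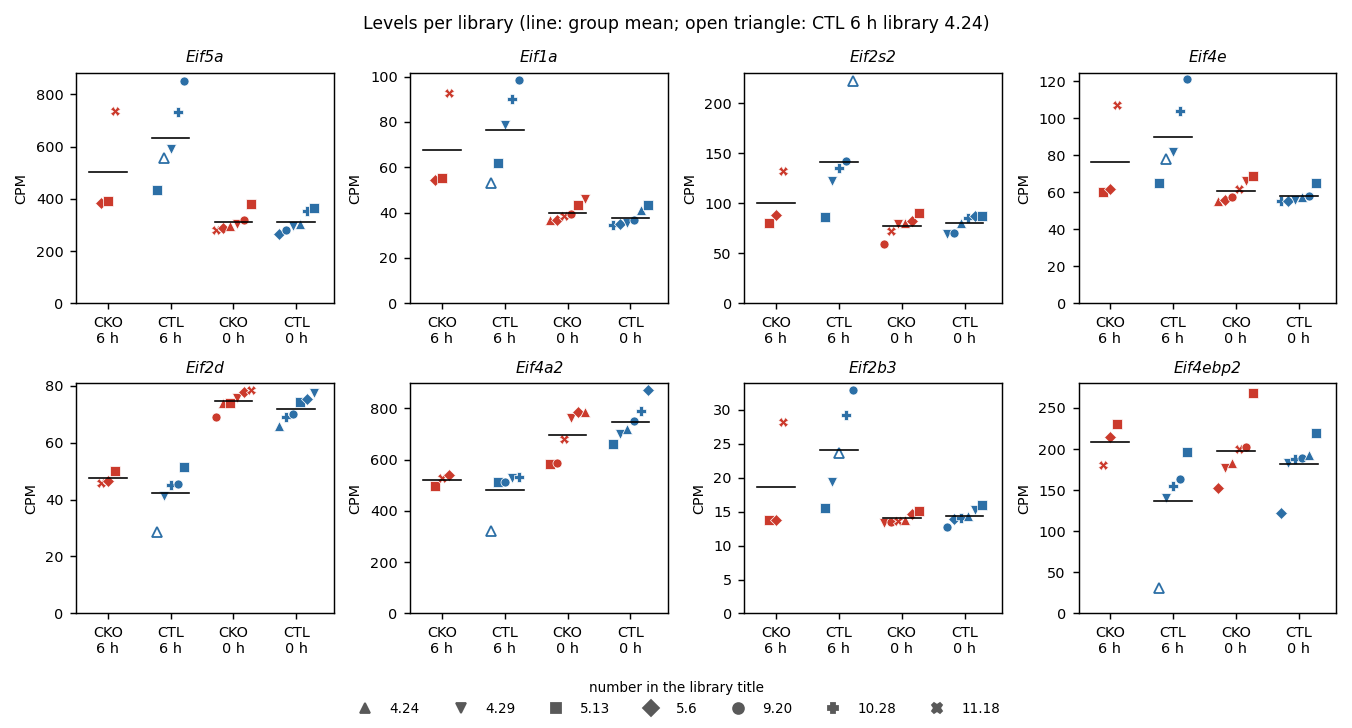
CPM (vertical axes) of 8 initiation factor mRNAs in each library, with groups in the order CKO 6 h, CTL 6 h, CKO 0 h and CTL 0 h, a line at each group mean, a symbol for the number in the library title and an open triangle for CTL 6 h library 4.24. Eif5a and Eif1a lie above their 0 h values in every 6 h library, Eif2d and Eif4a2 below, and in Eif2b3 and Eif4e the squares of number 5.13 stand low at 6 h in both genotypes.

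In CTL cells 16 of the 22 calls held when any 1 of the 20 libraries was left out. The calls on Eif1, Eif4a1, Eif4a3 and Eif4e3 each ended without CKO 0 h library 4.29, 5.6 or 9.20 or CTL 0 h library 5.6 or 9.20. Those on Eif4a1 and Eif4a3 also ended without CTL 6 h library 9.20 or 10.28, that on Eif4a1 without CTL 0 h library 4.29 or 5.13 too, and that on Eif1 without CTL 6 h library 4.24. The fall of Eif1b ended without CTL 0 h library 4.29, 5.13 or 10.28 or CTL 6 h library 4.29, 5.13, 9.20 or 10.28, and that of Eif2b2 without CTL 0 h library 5.13 or 10.28 or CTL 6 h library 4.24, 9.20 or 10.28. Of the CKO rises, that of Eif2s1 ended without CKO 0 h library 4.29, 5.6 or 9.20, CTL 0 h library 5.6 or 9.20 or CKO 6 h library 11.18. That of Eif3d ended without CKO 0 h library 4.29, 5.6 or 9.20, CTL 0 h library 5.6 or CKO 6 h library 11.18, and that of Eif3g without any of these and also without CTL 0 h library 9.20 or CKO 0 h library 11.18. The fall of Eif2a in CKO cells ended without CKO 6 h library 5.13 or 5.6.

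Loss of Pcbp2 went with no called initiation factor mRNA at either time. At 0 h none of the 50 members was called in CKO against CTL cells, against 0.424% of all genes tested, of which 0.231% were higher and 0.192% lower, with 1 member at an unadjusted p under 0.05 and none called by DESeq2. At 6 h none was called by edgeR, against 0.292% of all genes, 0.253% higher and 0.0392% lower, with 5 members under 0.05 before adjustment, while 1 was called by DESeq2, Eif2a (log2 change −0.31, adjusted p = 0.0308). At these background shares fewer than 1 in 50 genes is called. The median log2 difference of the members was −0.01 at 0 h and −0.03 at 6 h. Over all genes it was 0.05 and −0.29, and over the 9015 genes with at least 10 CPM −0.02 and 0.14. At 0 h, 42 of 49 members had a 95% interval within 0.5 of 0 on the log2 scale and all 49 within 1. At 6 h 26 of 49 lay within 0.5 and 48 within 1. In simulated counts 50 genes with at least 10 CPM were changed by each fold. At 0 h the test called 0 of those changed by a fold of 1.2, 16 at 1.5 and 43 at 2. At 6 h it called 0, 13 and 40. Small changes could thus be missed at both times.

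**Figure D3:**
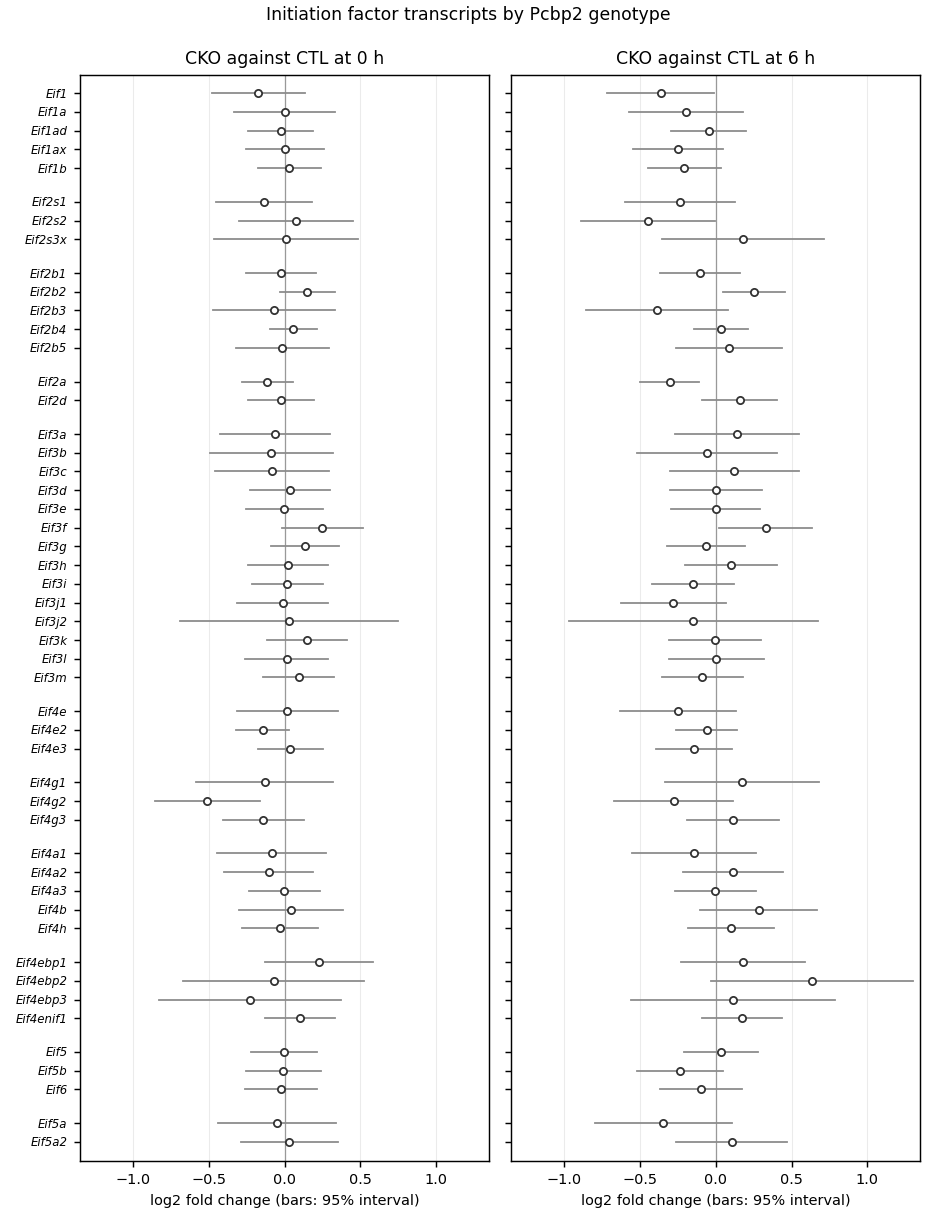
Log2 difference of CKO against CTL cells (horizontal axes) for 49 initiation factor mRNAs at 0 h and at 6 h, in the order of their roles, with 95% intervals as bars and open points throughout, since none was called; Eif2s3y is not drawn. Eif4g2 lies lowest at 0 h, at −0.51, and below 0 at 6 h, and the bars are wider at 6 h, where there are 3 CKO libraries.

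The member nearest to a call at 0 h was Eif4g2, also known as DAP5 or p97, a relative of eIF4G that lacks the part that binds eIF4E and serves initiation on messages that do not use the cap-binding complex. The gene, ENSMUSG00000005610, lies at chr7:111067750-111083030 on the minus strand of GRCm38. Eif4g2 had a lowest, median and highest value of 604, 686 and 776 CPM in CKO cells at 0 h, against 756, 950 and 1020 CPM in CTL cells. The means were 689 ± 61.9 CPM in CKO and 921 ± 99.0 CPM in CTL cells (n = 6 each), and the groups overlapped only between 756 and 776 CPM. The log2 difference was −0.51 ± 0.16, with a 95% interval of −0.85 to −0.17, and did not pass (edgeR quasi-likelihood test, adjusted p = 0.292). At 6 h Eif4g2 had 612, 629 and 723 CPM in CKO cells, against 820, 413, 806, 992 and 931 CPM in CTL cells, a difference of −0.28 ± 0.19 (adjusted p = 0.451). All 3 CKO libraries lay below 4 of the 5 CTL libraries, and the CTL library below them was 4.24.

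Eif4g2 crossed the threshold when that library was set aside. Without CTL 6 h library 4.24 the difference at 0 h was −0.43 (adjusted p = 0.0353), a comparison the library enters through the shared spread, scaling and sex term, and at 6 h it was −0.44 (adjusted p = 0.139). With genes under 1 CPM left out as well, Eif4g2 was the one member called at 0 h (−0.44, adjusted p = 0.0161), against 2.47% of all genes in that setting, and the one called at 6 h (−0.49, adjusted p = 0.0435), against 1.22%. One call among 49 members is a share near these backgrounds. Adding the library number as a replicate block to that setting gave −0.40 at 0 h (adjusted p = 0.0447) and −0.44 at 6 h (adjusted p = 0.157). Between libraries of the same number, CKO cells had less Eif4g2 than CTL cells in 5 of 5 pairs at 0 h, with differences of −0.23 for 4.29, −0.54 for 4.24, −0.40 for 5.13, −0.32 for 5.6 and −0.53 for 9.20 on the log2 scale, and of −0.40 in the single pair at 6 h. The direction at both times was negative under every alternative run. The adjusted p at 0 h ran from 0.0161 to 0.651 over the tests of no difference and was 0.855 in the test against a fold of 1.2. The call is thus not a settled one.

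The scaffolds Eif4g1 and Eif4g3 were not called between genotypes under any setting run. In the setting without library 4.24 and without genes under 1 CPM, Eif4g1 differed by −0.04 at 0 h (adjusted p = 0.932) and −0.08 at 6 h (adjusted p = 0.794), and Eif4g3 by −0.08 (adjusted p = 0.634) and −0.06 (adjusted p = 0.742). A ratio within a library does not depend on the scaling of libraries, and the ratio of Eif4g1 to Eif4g2 was therefore compared after the values had been seen. It had a lowest, median and highest value of 0.715, 0.768 and 0.852 in CKO cells at 0 h, against 0.531, 0.565 and 0.642 in CTL cells, with no overlap. The mean log2 ratio was −0.37 in CKO and −0.81 in CTL cells, a difference of 0.43 (exact two-sided permutation test, p = 0.00216, the smallest that 6 against 6 libraries can give, and 0.0346 adjusted over 16 such ratio tests). At 6 h the ratio was 0.82, 0.897 and 0.978 in CKO cells, against 0.629, 0.453, 0.677, 0.731 and 0.679 in CTL cells, again with no overlap. The log2 difference was 0.52 (exact two-sided permutation test, p = 0.0179, the smallest that 3 against 5 can give, adjusted p = 0.0952). Same-numbered libraries deviate together, so the ratio was also compared within pairs: the log2 ratio was higher in CKO than in CTL cells in 5 of 5 pairs at 0 h, by 0.155 to 0.608 with a mean of 0.443 (exact two-sided sign-flip permutation test, p = 0.0625, the smallest that 5 pairs can give). Paired in this way the design cannot reach 0.05, and the ratio was picked after its values had been seen. The ratio alone does not show which of the mRNAs differed.

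**Figure D4:**
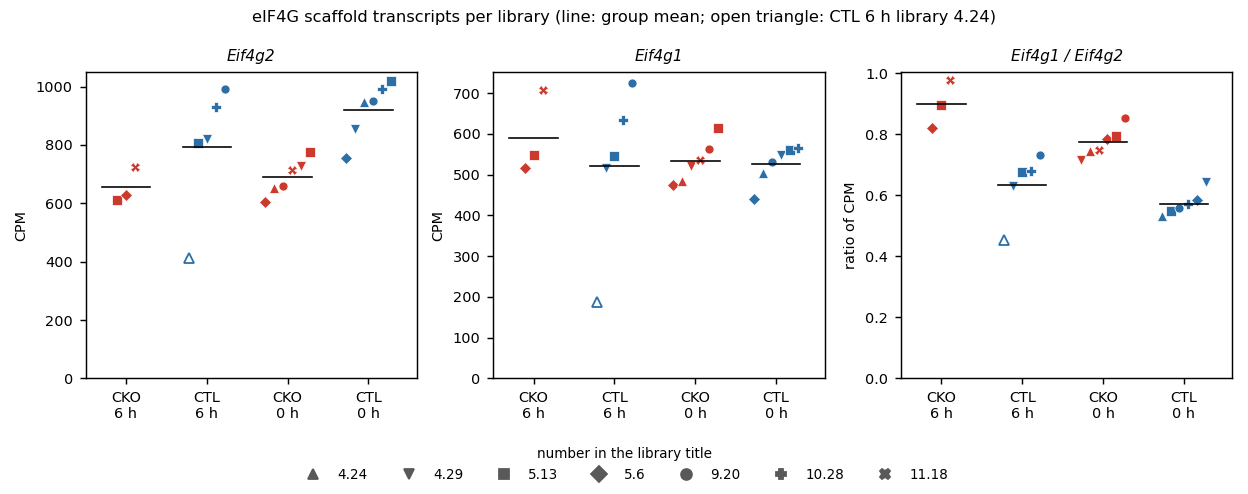
CPM of the scaffold mRNAs Eif4g2 and Eif4g1 and the ratio of Eif4g1 to Eif4g2 (vertical axes) in each library, with groups in the order CKO 6 h, CTL 6 h, CKO 0 h and CTL 0 h, a line at each group mean, and an open triangle for CTL 6 h library 4.24. Eif4g2 is lower in CKO than in CTL cells at 0 h save for a small overlap, library 4.24 is low for both mRNAs, and the ratio separates CKO from CTL libraries at both times.

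The other members nearest to a call at 0 h were Eif3f at 0.25 ± 0.13 (adjusted p = 0.721) and Eif4e2 at −0.15 ± 0.08 (adjusted p = 0.767). Eif3f, a subunit of eIF3 on chromosome 7, had 430, 410 and 410 CPM in CKO cells at 6 h, against 343, 339, 340, 298 and 328 CPM in CTL cells, and 405, 444 and 608 CPM in CKO cells at 0 h, against 279, 371 and 483 CPM in CTL cells. The 6 h libraries of the genotypes did not overlap, the 0 h libraries did, and the difference at 6 h was 0.33 ± 0.15 (adjusted p = 0.383). Eif2a had 36.4, 35.8 and 39.2 CPM in CKO cells at 6 h, against 43.0, 45.4, 39.1, 50.6 and 52.4 CPM in CTL cells, a difference of −0.30 ± 0.09 (adjusted p = 0.25) with overlap only at 39.1 to 39.2 CPM. Eif2b2 had 54.0, 52.1 and 50.9 CPM in CKO cells at 6 h, against 45.8, 40.8, 48.2, 42.4 and 41.9 CPM in CTL cells, with no overlap and a difference of 0.25 ± 0.10 (adjusted p = 0.366). None of these passed, and Eif2a was called only by DESeq2. Over the 5 same-numbered pairs at 0 h, 11 members were higher in CKO cells in every pair and 3 were lower in every pair (Eif1, Eif2a and Eif4g2). Of all genes, 8.7% were higher and 9.6% lower in every pair, and of the 9015 genes with at least 10 CPM, 18.7% and 8.23%, so the count of higher members lies above the first background and near the second. Eif4b lies 373 kb from Pcbp2 on chromosome 15 and differed by 0.28 ± 0.19 at 6 h (adjusted p = 0.442) and 0.04 ± 0.16 at 0 h (adjusted p = 0.979).

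The gamma subunit of eIF2 has an X-linked gene, Eif2s3x, and a Y-linked copy, Eif2s3y, which splits the libraries into 2 sets. Eif2s3y had 75.4 to 116 CPM in 12 libraries and 0.0557 to 0.668 CPM in the other 8. Those 8 include the CKO libraries 4.24 and 5.6 at 0 h that were labelled male, while CKO library 5.6 at 6 h was labelled female. Eif2s3x had 69.6 to 114 CPM in the 12 libraries with Eif2s3y and 39.2 to 137 CPM in the 8 without, which overlap, and the sum of both genes was 151 to 201 CPM and 39.9 to 138 CPM, which do not. In CKO cells at 6 h Eif2s3x had 86.5, 117 and 108 CPM, against 82.0, 39.2, 85.8, 114 and 137 CPM in CTL cells, and it was called in none of the comparisons by edgeR with all libraries. The sex label was a term of the fit, so the 2 libraries whose label and Y-linked level disagree enter it with the labelled sex, and no genotype difference of Eif2s3y was read from it.

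**Figure D5:**
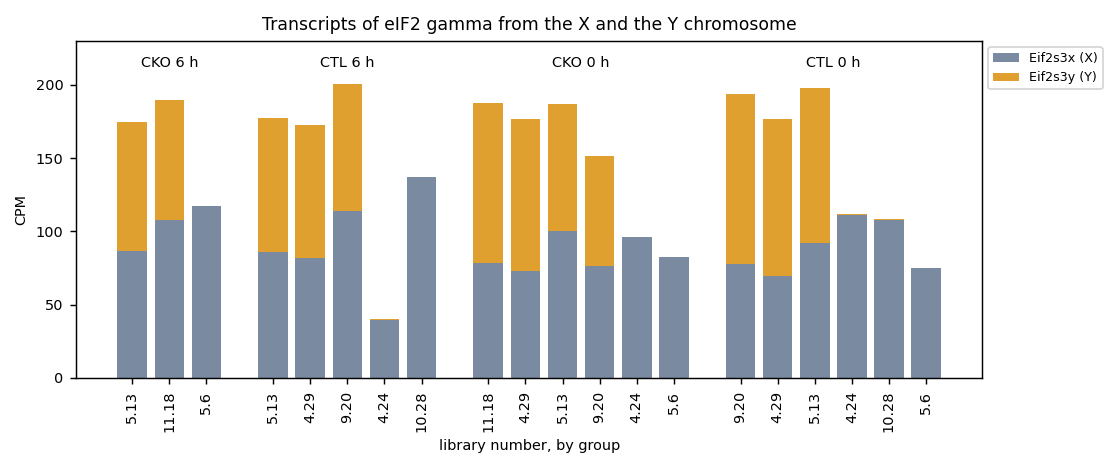
Stacked bars of Eif2s3x and Eif2s3y in CPM (vertical axis) for each library by its number, with groups in the order CKO 6 h, CTL 6 h, CKO 0 h and CTL 0 h. The upper part, Eif2s3y, is at 75.4 CPM or more in 12 libraries and too small to see in 8, and the stacks with both genes are the taller ones.

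Genes that regulate or accompany the initiation factors were taken as a list of 53 tested genes. In CTL cells 12 rose and 17 fell at 6 h, where 41.6% of all genes rose and 21.7% fell, and 11.9% and 46.0% of those with at least 10 CPM. In CKO cells 9 rose and 6 fell, where 19.6% of all genes rose and 13.1% fell, and 9.18% and 23.1% of those with at least 10 CPM. The list had medians of −0.10 and −0.00 on the log2 scale against the all-gene medians given above. The Eif2ak kinases and the phosphatase genes that act on the eIF2 alpha subunit Eif2s1 held 5 falls and no rise among 7 genes in CTL cells, against the same shares of falls of 21.7% and 46.0%, and no call in CKO cells. The differences between genotypes were not called. Pdcd4, which binds eIF4A and blocks it, averaged 251 CPM in CKO and 198 CPM in CTL cells at 6 h, and 380 CPM in CKO and 365 CPM in CTL cells at 0 h. Pdcd4 fell by 0.58 ± 0.15 in CKO (adjusted p = 0.00711) and by 0.89 ± 0.12 in CTL cells (adjusted p = 1.2e-05). Larp1, which binds the caps of messages with a pyrimidine start, rose by 0.60 ± 0.15 in CKO and 0.64 ± 0.13 in CTL cells. In CKO against CTL cells none of the list was called at 0 h and 1 was called at 6 h, against 0.424% and 0.292% of all genes. The gene called was Trib3, a target of the Atf4 stress pathway (1.13 ± 0.19, adjusted p = 0.0104). Atf4 and Ddit3, listed with it, were not called. No gene of the list was called in the test of the difference between the responses.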

How the data were processed

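Per the labels' protocols, stranded poly(A) libraries were sequenced as paired ends. The authors deposited raw whole-number counts per Ensembl gene. Tools named in the submitters' processing notes are STAR 2.5.2b, Trimmomatic 0.36, Subread 1.5.2 and featureCounts, with the build GRCm38. For the annotation release and strand setting the sources used here give nothing, so members that overlap another gene are uncertain. Of 49315 gene IDs, 49056 matched GENCODE M21, from which symbols and coordinates were taken, and 259 did not. It held 0 columns from any other sample.

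Counts were tested with edgeR 4.0.16 (limma 3.58.1, R 4.3.3). The filter filterByExpr (minimum count 10, minimum total 15) left 28082 genes, of which 50 were members. TMM factors scaled the libraries, and a robust quasi-likelihood fit held the 4 groups and the labelled sex over all 20 libraries, which share 1 estimate of the spread. Contrasts were CKO against CTL at each time, 6 h against 0 h in each genotype, and the difference between these responses. Two-sided p-values were adjusted by Benjamini and Hochberg over all genes and called under 0.05. DESeq2 1.42.0 was an alternative. The scripts were tested on simulated data. Counts per library summed to 26.4 M to 85.6 M, and precision is given by the spread between libraries. No library was a copy of another, with a chi-square per degree of freedom of 21.5 to 326 over 43 pairs within groups, where sampling noise gives about 1.

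The members and lists were chosen with earlier results of these data known. The text names the members called in a genotype or difference test (where none was, the 3 with the smallest adjusted p), the 5 largest called rises and falls in CTL cells, and sets of paralogs. Other genes and the paralog ratios were chosen after their values had been seen. Same-numbered libraries deviated together from their group means, with correlations of 0.304 to 0.628 in 5 pairs of CKO and CTL cells at 0 h, 0.319 to 0.502 in 5 pairs of CTL cells at 6 h and 0 h, and 0.176 to 0.493 in 3 such pairs of CKO cells. The number was therefore used as a block in an alternative fit.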

Additional observations from a re-analysis of the deposited data

Results flagged for a closer look

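Over 99 groups of 5 or 6 libraries, 13 values of a member lay farther from the rest of their group than Dixon's criterion allows, where chance flags about 1 in 20 groups. CTL library 4.24 at 6 h, the shallowest, gave 4 of them. It was low for Eif4a2, with 321 CPM against 513 to 534 CPM in the other CTL libraries, for Eif4enif1, with 64.4 CPM against 91.0 to 97.3 CPM, and for Eif4ebp3, with 0.584 CPM against 1.51 to 1.83 CPM, and high for Eif1b, with 49.2 CPM against 35.4 to 39.0 CPM.

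CKO library 5.13 at 0 h was high for the eIF3 subunits Eif3f, with 608 CPM against 405 to 450 CPM in the other CKO libraries, Eif3d, with 156 CPM against 109 to 122 CPM, and Eif3g, with 131 CPM against 99.2 to 110 CPM, and for Eif1ax, with 68.3 CPM against 46.1 to 53.3 CPM. CKO library 9.20 at 0 h was low for Eif3j1, with 36.3 CPM against 44.7 to 47.7 CPM, and CKO library 5.6 at 0 h was low for Eif5a2, with 11.9 CPM against 14.8 to 16.3 CPM. In CTL cells at 0 h, library 10.28 was high for Eif1, with 462 CPM against 278 to 329 CPM, library 5.13 was high for Eif4e, with 65.1 CPM against 55.1 to 57.9 CPM, and library 5.6 was low for Eif4ebp2, with 122 CPM against 183 to 219 CPM.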

How the results depend on the processing

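In CTL cells the 22 called members became 14 when tested against a fold of 1.2, and lay between 17 and 32 under the other alternatives and between 18 and 27 with 1 library left out, with 14 of the 22 called in every setting. In CKO cells the 10 called became 5 with the number as a replicate block, 5 against a fold of 1.2, 4 without the 0 h CKO libraries 4.24 and 5.6 together, and 25 without CTL library 4.24 at 6 h and genes under 1 CPM (16 with the replicate block as well), and lay between 3 and 15 with 1 library left out. Between genotypes the count of 0 at 0 h became 1 in that last setting, 1 with its block and 0 to 1 with 1 library left out, and that of 0 at 6 h became 1 with DESeq2, 1 in that setting and 0 to 0 with 1 library left out. The difference between responses held 0 calls throughout, and could not be fitted with only the groups compared. Among the named genes over all settings, 1695 values kept direction and side of the threshold, 118 lost the call, 24 gained it and 38 turned. Of called changes, 2 turned, both in CTL cells with genes under 1 CPM left out, to 0.00502 for Eif1b and 0.000348 for Eif2b2. The other 36 belong to 11 changes that had not been called. In CTL cells with genes under 1 CPM left out, Eif4e2 stood at 0.125, Eif4g1 at 0.129, Eif4g3 at 0.00357, Eif4ebp3 at 0.0401 and Eif2s3y at 0.0518. With CTL library 4.24 left out too, Eif4e2 stood at 0.171 and Eif4g1 at 0.369, both called, Eif4g2 at 0.128, Eif4g3 at 0.132 and Eif4ebp3 at 0.272 in CTL cells, and Eif2b2 at 0.0179 in CKO cells. With the replicate block added these were 0.165 and 0.322, again both called, 0.111, 0.109, 0.21 and 0.0316 in the same order, and Eif4ebp2 stood at 0.000303 in CTL cells. Eif4g1 stood at 0.0166 with RLE scaling, 0.0165 with DESeq2 and 0.192 without CTL 6 h library 4.24, without which Eif4ebp3 stood at 0.0969. Eif2s3y stood at 0.215 with DESeq2 and 0.0509 without CTL 0 h library 4.24. In CKO cells without library 11.18 at 6 h, Eif2s2 stood at −0.036 and Eif2b3 at −0.0528. Eif2s3x in CTL cells stood at −0.0273 with the number as a replicate block, −0.0334 with the block in voom and −0.00209 without the 0 h CKO libraries 4.24 and 5.6. Leaving out 1 library turned it to −0.002 (CKO 0 h 4.29), −0.00201 (CKO 0 h 5.6), −0.00203 (CKO 0 h 9.20), −0.0353 (CTL 0 h 9.20), −0.0354 (CTL 0 h 5.6 and CTL 6 h 9.20) and −0.157 (CTL 6 h 10.28). The share of CTL calls that rose, 77.3%, was 90.9% with RLE scaling, 92.9% with genes under 1 CPM left out, 87.5% with DESeq2 and 63.2% without those 2 CKO libraries. The cause of these shifts was not tested. The filter on low counts left Eif4e1b untested in the main fit.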
